A study of Mus musculus with 16 samples.

Results

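Cells sorted as CD24_CD29 were compared with cells sorted as CD24 and as CD29, by the fractions of mitochondrial DNA alleles in 6 of the 16 ATAC-seq libraries of the study. Libraries were chosen by their labels alone: replicates 1 and 2 of CD24_CD29, set against replicates 1 and 2 of CD24 and of CD29 and compared within a replicate number. All 6 came from femurs of mice aged 3 months and homozygous for PolG D257A, so the CD24 and CD29 libraries carried the mutator allele too, and no library with intact PolG was analysed here. The labels give neither the sort gates nor how many cells or which mice stood behind a library, so the spread between replicates may be technical. CD24 (gene Cd24a) is a small lipid-anchored surface glycoprotein and CD29 (gene Itgb1) is integrin beta 1, and both are used to part skeletal cell populations. These are nuclear genes, and the tables hold mitochondrial positions only, so the labels could not be checked against these markers.

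PolG is the polymerase that replicates the mitochondrial genome. With D257A it no longer proofreads, so that copying errors remain and a cell carries many mitochondrial genomes with different mutations. As cells divide, genomes are passed on unevenly, and a mutation can drift up to a fraction that bulk sequencing sees or be lost. Mitochondrial DNA encodes subunits of complexes I, III and IV and of ATP synthase, and the ribosomal and transfer RNAs to make them.

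An allele was one position with one non-reference base, over 16299 positions and 48897 alleles, and its fraction was its count over the coverage. Counted alleles of a library were those with 5 or more counts that reached 1%. Mean coverage per position was 13534 and 6569 counts in CD24_CD29 replicates 1 and 2, 16177 and 17637 in CD24, and 77252 and 36822 in CD29. CD24_CD29 replicate 2 was the shallowest library at every position, so counts were thinned at random to its coverage (mean over 20 draws) where values are given as at equal coverage; values given as deposited were not thinned. An allele at 0 counts at that mean coverage could still be present at up to 0.0457% (3 counts). In bulk DNA, many copies of an allele in few cells and few copies in many cells cannot be told apart.

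The sequences that carry the results are shown first. Each line gives 21 bases of the reference strand of the mitochondrial genome (MT, GRCm38), read from the deposited tables, with the base that changed in capitals. The first 8 are alleles counted in CD24_CD29 and in neither CD24 nor CD29 of the same number. The next 3 are alleles at a high fraction in all 3 subsets. The last 2, both in COX3, were higher in CD24_CD29 than in CD24 and CD29 in both numbers.
C14338T, CYTB, MT:14328-14348: gccttttcatCagtaacacac
T14914C, CYTB, MT:14904-14924: gacaactacaTaccagctaat
C11794T, ND5, MT:11784-11804: ctactatcccCaatcctaatt
C12573T, ND5, MT:12563-12583: aacaactataCtttgcctcgg
C635T, mt-Rnr1, MT:625-645: gttctataatCgataaacccc
A5062G, TrnA, MT:5052-5072: atgcaaatcaAttgctttaat
T10941C, ND4, MT:10931-10951: atatatagcaTaccccttcat
T13233C, ND5, MT:13223-13243: agtattaggaTtcctaatcgc
C10658T, ND4, MT:10648-10668: taattgccctCatcttaatcc
C11959T, ND5, MT:11949-11969: accataaattCaatagaactt
C1051T, TrnV, MT:1041-1061: attaaagcatCtggcctacac
C8929T, COX3, MT:8919-8939: agcctcgtacCaacacatgat
C8752T, COX3, MT:8742-8762: ggcctactcaCcaatatcctc

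CD24_CD29 cells held more mitochondrial alleles at 1% or more than CD24 or CD29 cells in both replicates. At equal coverage, 290.3 and 416 alleles were counted in CD24_CD29 replicates 1 and 2, against 148 and 133 in CD24 and 115 and 213 in CD29. The CD24_CD29 mean was 353 ± 88.9, against 141 ± 10.2 in CD24 and 164 ± 69.2 in CD29 (SD, n = 2 each), and the CD24_CD29 libraries did not overlap the other 4. An exact two-sided permutation test over the 15 ways to choose 2 of 6 libraries gave p = 0.0667, the smallest this design allows, so no difference in a value per library can pass 0.05. CD24_CD29 replicate 1 and CD24 replicate 1 had similar coverage as deposited, and there 280 and 139 alleles were counted without thinning.

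The excess lay at low fractions. At a threshold of 2%, 55.7 and 96 alleles were counted in CD24_CD29, against 40.1 and 44.6 in CD24 and 35.9 and 45.9 in CD29. At 5% the subsets overlapped, with 13.1 and 9 alleles in CD24_CD29, 13.1 and 9.05 in CD24, and 10.8 and 6.35 in CD29. The number of cells sorted for each library was not given, and its part in the number of alleles was not tested.

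**Figure D1:**
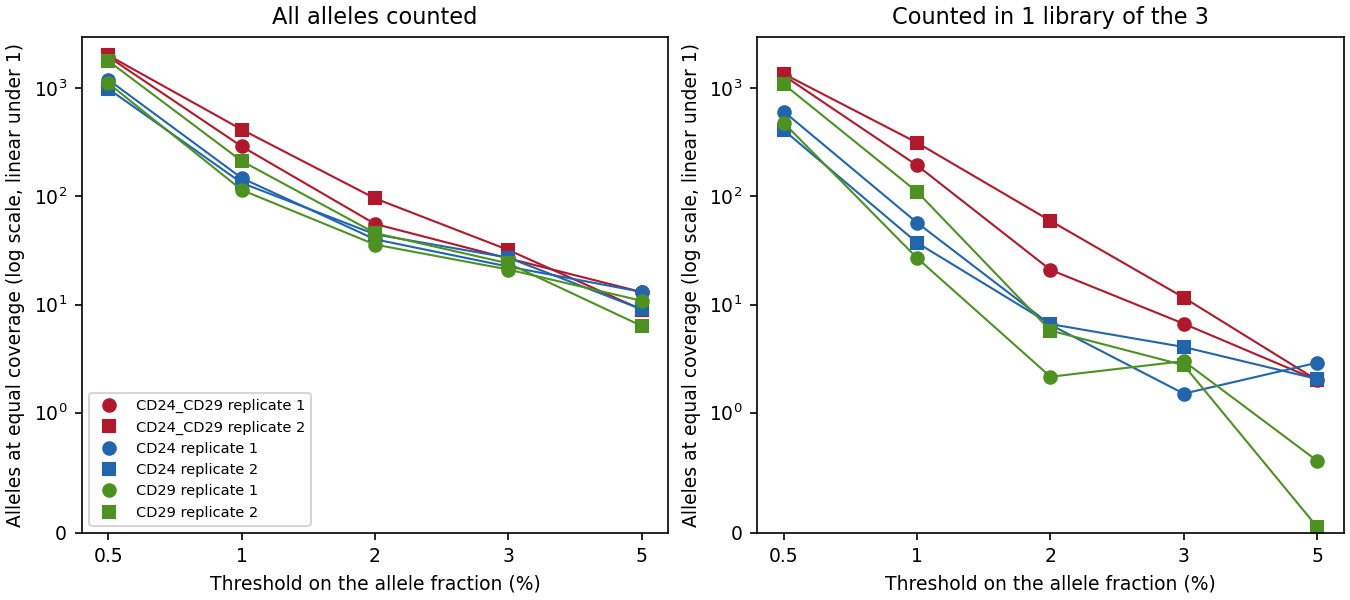
Number of alleles at equal coverage (vertical, log scale) by threshold on the allele fraction (horizontal, %) for the 6 libraries; the left panel shows all alleles counted and the right panel those counted in 1 of the 3 libraries of a replicate number. At 1% and 2% both CD24_CD29 lines lie above the other 4, and at 5% the lines of the left panel overlap.

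Most of the additional alleles were counted in CD24_CD29 alone. At equal coverage, 193 and 313.5 alleles were counted in CD24_CD29 and in neither of the others of the same number, against 57.05 and 37.25 in CD24 alone and 26.9 and 110.2 in CD29 alone. As deposited, the CD24_CD29 alleles of this kind numbered 186 and 315, and 64 and 70 alleles were counted in all 3 subsets. The classes counted in exactly 2 of the 3 subsets were small and of like size: 16 and 11 alleles in CD24_CD29 and CD24, 14 and 20 in CD24_CD29 and CD29, and 11 and 13 in CD24 and CD29.

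The alleles counted in CD24_CD29 alone had a median fraction there of 1.20% in replicate 1 and 1.33% in replicate 2, beside medians of 0.211% and 0.218% in CD24 and 0.298% and 0.230% in CD29. The choice of these alleles fixes that CD24_CD29 is higher, so the gap is a description.

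**Figure D2:**
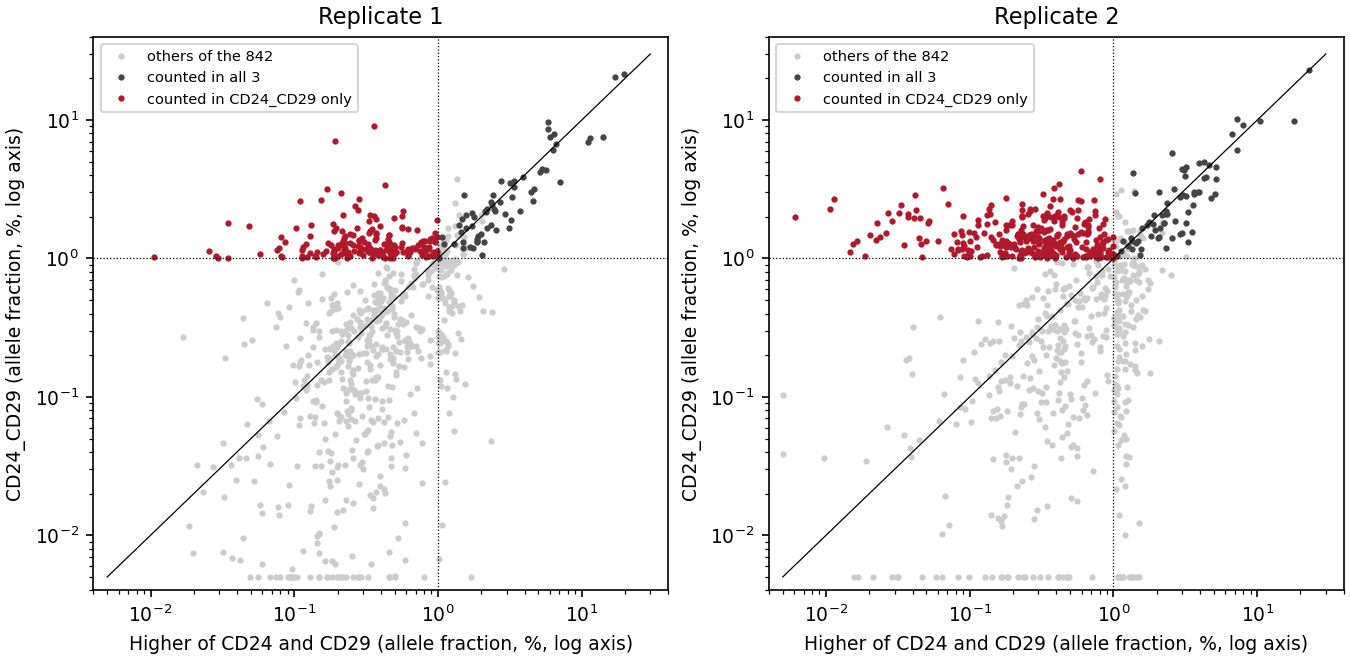
Allele fraction in CD24_CD29 (vertical, %, log axis) against the higher of CD24 and CD29 (horizontal, %, log axis) for the 842 alleles counted in at least 1 of the 6 libraries, by replicate number; values under 0.005% are drawn at 0.005%, the solid line marks equal fractions and the dotted lines 1%. The 186 and 315 alleles counted in CD24_CD29 only lie above and left of the dotted lines, and the 64 and 70 counted in all 3 lie along the line.

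Complex III was where the highest allele of this kind lay. CYTB encodes cytochrome b, the subunit of complex III that mitochondrial DNA supplies. C14338T, a change of S65L in CYTB, reached 9.09% in CD24_CD29 replicate 1 (8.73 to 9.46%, the exact 95% interval) and 0.527% in CD24_CD29 replicate 2. CD24 had 0.30% and 0.0464%, and CD29 had 0.361% and 0.271%. One library of the 6 was high, and the same allele was at 0.444% or less in the other 5 subsets of replicate 1.

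T14914C, a change of M257T in CYTB, showed the same shape. Its fraction was 7.04% (6.70 to 7.39%) in CD24_CD29 replicate 1 and 0.0687% in CD24_CD29 replicate 2, against 0.192% and 0.0831% in CD24 and 0.124% and 0.304% in CD29. All 16 CYTB alleles counted in CD24_CD29 replicate 1 were counted there and in neither CD24 nor CD29, and in replicate 2 this held for 20 of 27 (74.1%). Over all genes it held for 186 of 280 (66.4%) in replicate 1 and 315 of 416 (75.7%) in replicate 2, so the CYTB share of replicate 2 was about that of all alleles.

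Complex I pumps protons from NADH oxidation, and ND5, ND4 and ND6 are among its membrane subunits. C11794T (ND5, P18L) stood at 3.42% and 0.522% in CD24_CD29, against 0.197% and 0.652% in CD24 and 0.427% and 0.126% in CD29. C12573T (ND5, L278F) stood at 3.15% in CD24_CD29 replicate 1 and had 0 of 8866 counts in CD24_CD29 replicate 2, which allows up to 0.0338%. CD24 had 0.0138% and 0.0644% of that allele, and CD29 had 0.169% and 0.0162%. For both, only CD24_CD29 replicate 1 lay above 1%.

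The remaining 4 of the 8 largest in replicate 1 ranged from 2.59% to 2.97% in CD24_CD29: T12118C (ND5, I126T), A10814G and C10263T (ND4, both synonymous) and A13746T (ND6, Y109N). None of the 4 exceeded 0.297% in CD24_CD29 replicate 2 or 0.345% in any CD24 or CD29 library.

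In replicate 2 the largest were spread over RNA genes and proteins. C635T lies in mt-Rnr1, the small ribosomal RNA, and stood at 2.09% and 4.29% in CD24_CD29, against 2.69% and 0.598% in CD24 and 2.93% and 0.207% in CD29. This allele was therefore counted in all 3 subsets of replicate 1, where CD24_CD29 was the lowest, and in CD24_CD29 alone in replicate 2.

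A5062G lies in TrnA, the alanine transfer RNA, and stood at 0.0186% and 3.24% in CD24_CD29, against 0.353% and 0.0656% in CD24 and 0.0945% and 0.0591% in CD29. T10941C (ND4, Y259H) stood at 0.234% and 3.45% in CD24_CD29, against 0.408% and 0.247% in CD24 and 0.656% and 0.421% in CD29. T13233C (ND5, F498L) stood at 1.12% and 3.74% in CD24_CD29, against 0.490% and 0.684% in CD24 and 0.511% and 0.804% in CD29. Of these 3 alleles, T13233C was the one with CD24_CD29 above 1% and above both others in both numbers. In the other 5 subsets T13233C reached 1.20% in replicate 1, above CD24_CD29, and 1.04% in replicate 2.

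The other 4 of the 8 in replicate 2 stood between 2.70% and 3.22% in CD24_CD29: C3875T in TrnM (methionine transfer RNA), G11591T in TrnH (histidine transfer RNA), G12521A (ND5, synonymous) and C7386T (COX2, T125M). They were at 0.391% or less in CD24_CD29 replicate 1 and at 0.70% or less in every CD24 and CD29 library. C7386T had 0 of 12695 counts in CD24_CD29 replicate 1, which allows up to 0.0236%.

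**Figure D3:**
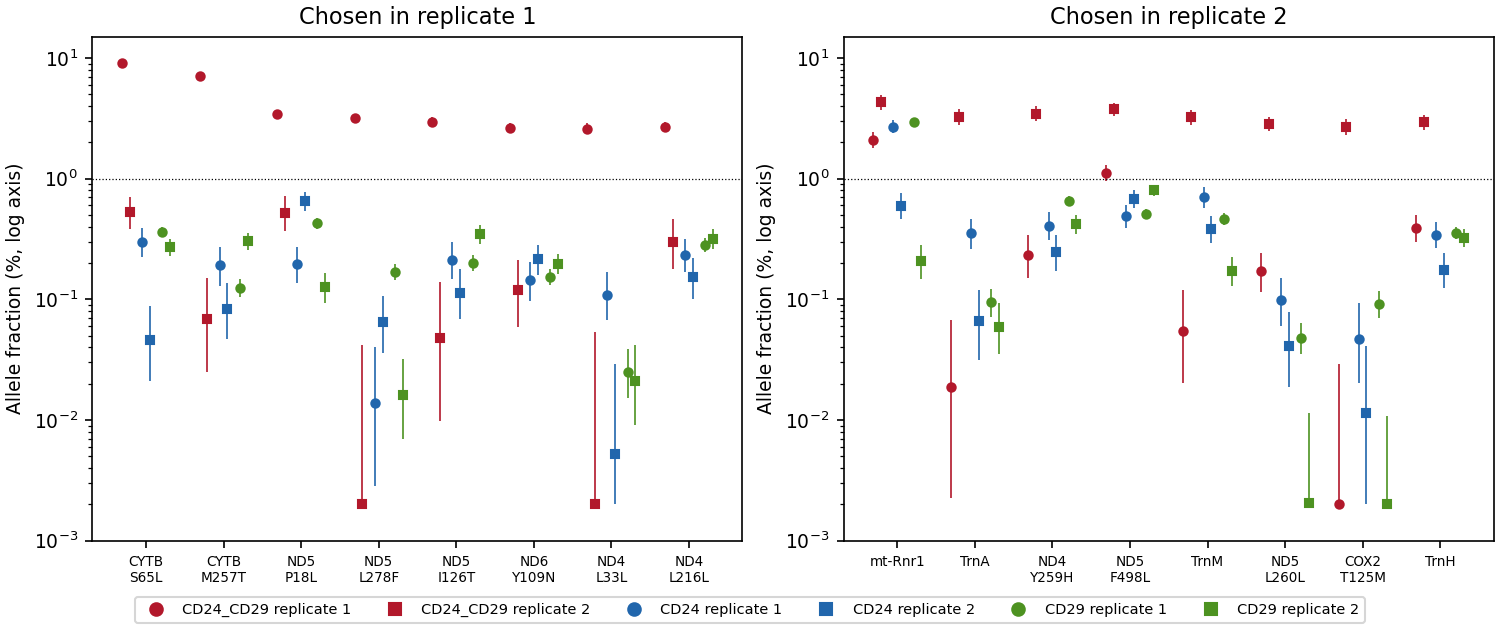
Allele fraction (vertical, %, log axis) in all 6 libraries for the 8 alleles of each replicate number with the largest lead of CD24_CD29 over CD24 and CD29, named by gene and protein change; bars are exact 95% intervals, cover counting error only, and stop at 0.002%, where 0 counts are drawn. The CD24_CD29 library used for the choice lies above 2.5% for every allele, and for 14 of the 16 alleles the CD24_CD29 library of the other number lies under 1%.

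The excess was not concentrated in one complex. At equal coverage, complex I genes held 17.8 and 23.5 counted alleles per kb in CD24_CD29, against 8.14 and 7.16 in CD24 and 6.95 and 13.2 in CD29. Complex IV genes (COX1 to COX3, the oxidase that passes electrons to oxygen) held 14.4 and 21.9 per kb in CD24_CD29, against 6.46 and 6.01 in CD24 and 4.02 and 9.16 in CD29. CYTB held 13.9 and 23.6 per kb in CD24_CD29, against 3.93 and 5.20 in CD24 and 2.01 and 14.2 in CD29. In each of these groups both CD24_CD29 libraries were above the CD24 and CD29 libraries of the same number.

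The ribosomal RNA genes held 13.1 and 33.5 counted alleles per kb in CD24_CD29, against 6.60 and 6.46 in CD24 and 3.86 and 13.2 in CD29, also at equal coverage. The transfer RNA genes held 24.2 and 28.2 per kb in CD24_CD29, against 11.1 and 9.70 in CD24 and 6.58 and 13.1 in CD29. ATP8 and ATP6, which encode the membrane subunits of ATP synthase, held 20.3 and 21.4 per kb in CD24_CD29, against 13.1 and 9.26 in CD24 and 11.6 and 9.74 in CD29. As deposited, ND3 held 23.0 and 34.5 counted alleles per kb in CD24_CD29, against 11.5 and 8.62 in CD24 and 8.62 and 14.4 in CD29, and ND5, the longest protein gene, held 20.8 and 23.0 in CD24_CD29, against 6.58 and 6.03 in CD24 and 6.58 and 12.1 in CD29. In mt-Rnr2 there were 8.85 and 33.5 per kb in CD24_CD29, 5.06 and 6.32 in CD24, and 2.53 and 15.2 in CD29, and the replicates of CD24_CD29 were far apart.

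The control region, which holds a start site of replication and start sites of transcription and encodes no product, was the exception. It held 34.0 and 30.8 counted alleles per kb in CD24_CD29 at equal coverage, against 29.99 and 28.4 in CD24 and 28.6 and 25.8 in CD29. As deposited, 3 of 29 (10.3%) and 7 of 27 (25.9%) of the CD24_CD29 alleles there were counted in neither CD24 nor CD29, against 66.4% and 75.7% over all genes. Numbers per gene group carry no test.

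Protein-changing and silent alleles were both more numerous. At equal coverage, missense alleles numbered 123 and 163 in CD24_CD29, against 50.4 and 58.7 in CD24 and 43.0 and 95.7 in CD29. Synonymous alleles numbered 60.2 and 89 in CD24_CD29, against 34.5 and 17.6 in CD24 and 22.7 and 35.5 in CD29. Among transitions in protein genes as deposited, missense changes made up 61.8% and 60.4% in CD24_CD29, against 54.1% and 74.1% in CD24 and 56.9% and 69.4% in CD29. All transitions possible in these genes would be 59.0% missense, so the CD24_CD29 share stood close to it and within the range of the other libraries.

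Stop-gained alleles numbered 5.85 and 8 in CD24_CD29 at equal coverage, against 1.6 and 1 in CD24 and 2.45 and 4.6 in CD29. As a share of the alleles in protein genes (as deposited) they were 3.24% and 3.08% in CD24_CD29, 1.27% and 1.39% in CD24, and 2.94% and 3.10% in CD29. The CD24_CD29 share was thus about that of CD29, and 5.33% of all possible changes gain a stop. Among transitions alone, the share was 2.08% and 3.74% in CD24_CD29 (3 and 7 alleles), 1.64% and 1.85% in CD24, and 1.96% and 3.06% in CD29. Of all possible transitions 3.75% gain a stop, so CD24_CD29 replicate 2 stood at that share. A13380T, a lysine codon to stop near the end of ND5, was highest in replicate 1, at 3.75% and 0.179% in CD24_CD29, 0.934% and 0.161% in CD24, and 1.36% and 0.165% in CD29. A15004G, a lysine codon to a stop of the mitochondrial code in CYTB, was highest in replicate 2, at 0.132% and 3.07% in CD24_CD29, 0.0451% and 0.673% in CD24, and 0.348% and 1.39% in CD29. Both alleles had counts in all 6 libraries. In the replicate 2 libraries, however, A13380T lay only a little above the median A>T allele of the same library. In CD24 replicate 1, A15004G lay below the median A>G allele. Presence above that background was not tested. G9775A (ND3, tryptophan to stop) was not highest in CD24_CD29 in either number. It stood at 2.57% and 0.0361% in CD24_CD29, 1.70% and 0.0188% in CD24, and 2.69% and 0.221% in CD29. C10147T in ND4L, a glutamine codon to stop, had 0 counts in CD24_CD29 replicate 1 and stood at 1.85% in CD24_CD29 replicate 2, against 0.0582% and 0.0655% in CD24 and 0.129% and 0.442% in CD29.

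Transitions led the alleles counted in CD24_CD29 alone, as they did those counted in CD24 alone or in CD29 alone. They were 146 of the 186 (78.5%) in replicate 1 and 216 of the 315 (68.6%) in replicate 2, against 77.1% and 71.0% of those counted in CD24 alone, 79.2% and 83.8% in CD29 alone, and 51.6% and 50% of the alleles counted in all 3 subsets. C>T, T>C and A>G each made up 17.5% to 24.7% of the alleles counted in CD24_CD29 alone, and G>A made up 5.91% and 6.67%. C>T and G>A within a CpG were 16.4% and 15.2% of the C>T and G>A alleles counted in CD24_CD29 alone, against 20.8% and 5% of those counted in all 3 (5 of 24 and 1 of 20), where CpG makes up 9.58% of all C and G positions. The alleles counted in all 3 held more T>A, A>C, T>G, C>A and G>T by share in replicate 1, and also in replicate 2. Of the transversion positions of that class, 51.7% and 42.4% lay within 5 bases of another such position. For those counted in CD24_CD29 alone it was 5% and 19.2%, and the cause was not tested.

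Transition shares of all counted alleles were less regular. At equal coverage they were 68.5% and 65.1% in CD24_CD29, 61.5% and 59.0% in CD24, and 56.3% and 69.7% in CD29, and the exact permutation p was 0.333. CD29 replicate 2 lay above both CD24_CD29 libraries. At a threshold of 0.5% the difference turned round, to a mean of -15.3 percentage points for CD24_CD29 minus the other 2 subsets.

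**Figure D4:**
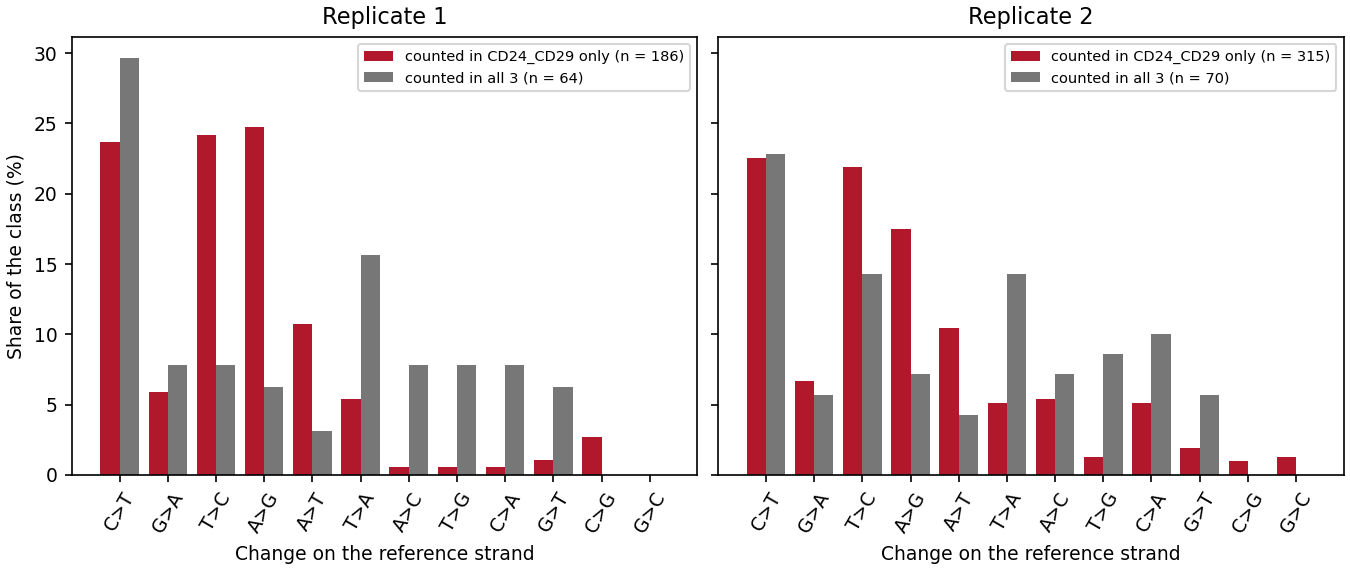
Share of each base change (vertical, % of the class) among alleles counted in CD24_CD29 only and among those counted in all 3 subsets, by replicate number; changes are read on the reference strand. T>C and A>G are a larger share of the CD24_CD29-only alleles, and T>A, A>C, T>G, C>A and G>T a larger share of the others.

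The total transition load was not higher in CD24_CD29 cells, although more alleles passed 1%. Summed over transitions, the mean non-reference fraction per position was 0.1299% and 0.1296% in CD24_CD29, against 0.1294% in both CD24 libraries and 0.1554% and 0.1812% in CD29. CD24_CD29 and CD24 thus had nearly the same load, and both lay below CD29. The exact permutation p for CD24_CD29 against the other 4 libraries was 0.733.

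That load was divided differently among alleles. Alleles at 1% or more supplied 18.6% and 24.4% of the transition load in CD24_CD29, against 10.5% and 9.69% in CD24 and 7.36% and 9.77% in CD29. The means were 21.5 ± 4.11%, 10.1 ± 0.600% and 8.56 ± 1.71% (SD, n = 2 each), and the CD24_CD29 libraries did not overlap the others, with the smallest p the exact permutation test allows (0.0667). C>T and G>A alone gave 33.2% and 39.2% in CD24_CD29, 22.7% and 19.5% in CD24, and 18.9% and 20.7% in CD29. T>C and A>G alone gave 12.1% and 17.3% in CD24_CD29, 5.38% and 5.67% in CD24, and 2.96% and 6.33% in CD29.

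At the other end of the distribution, more transition alleles had no count at all. At equal coverage 26.5% and 32.5% of the 16299 transition alleles were at 0 counts in CD24_CD29, against 24.2% and 21.0% in CD24 and 10.8% and 15.5% in CD29 (exact permutation p = 0.133). The median transition allele stood at 0.0378% and 0.0310% in CD24_CD29, against 0.0515% and 0.0592% in CD24 and 0.102% and 0.103% in CD29. Both CD24_CD29 medians lay under 0.0457%, which is 3 counts at the mean equal coverage, so they rest on few counts. Of the transition load, 50% was held by 1376 and 1136 alleles in CD24_CD29, against 1787 and 1939 in CD24 and 2708 and 2390 in CD29, so fewer alleles held the same share.

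**Figure D5:**
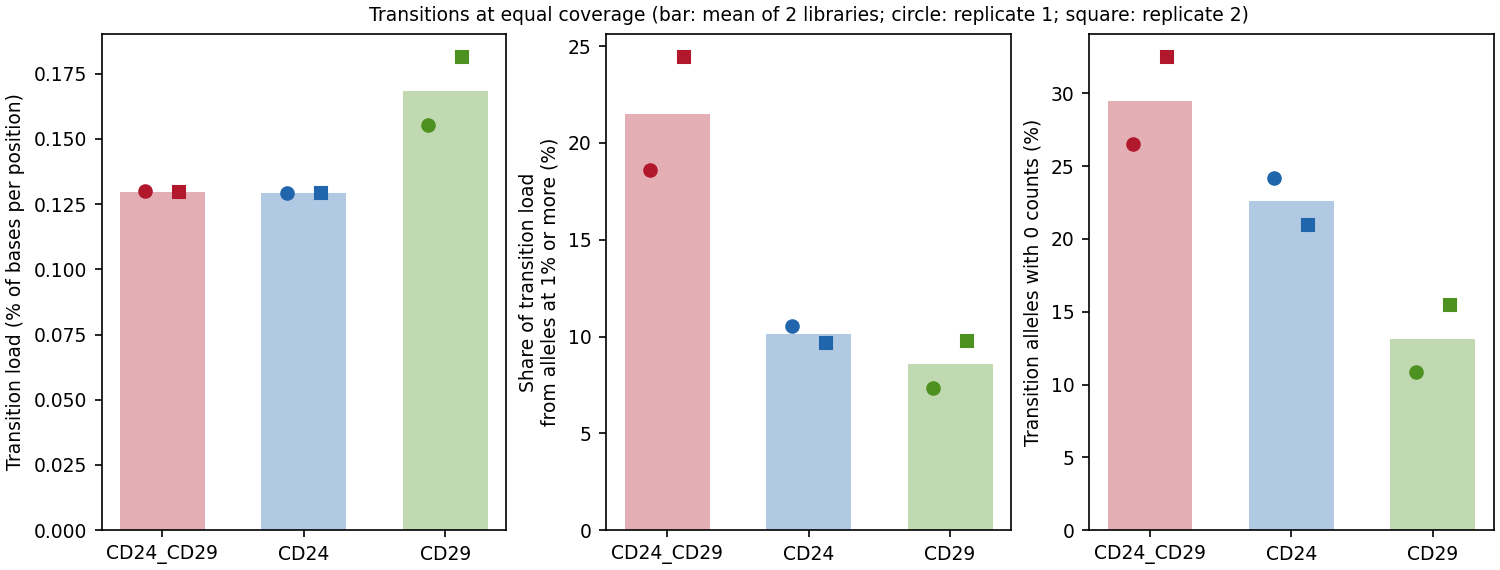
Transition load (left, % of bases per position), share of that load from alleles at 1% or more (middle, %) and share of transition alleles with 0 counts (right, %), all at equal coverage; bars are means of 2 libraries, circles replicate 1 and squares replicate 2. CD24_CD29 and CD24 have the same load, while 18.6% and 24.4% of it comes from alleles at 1% or more in CD24_CD29 against 10.5% and 9.69% in CD24.

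Changes other than transitions gave another picture. Over all changes, the load was 0.470% and 0.476% in CD24_CD29, against 0.405% and 0.385% in CD24 and 0.451% and 0.466% in CD29 (exact permutation p = 0.133). C>A and G>T supplied 0.128% and 0.122% in CD24_CD29, against 0.0991% and 0.0933% in CD24 and 0.107% and 0.102% in CD29, and the 2 CD24_CD29 libraries lay above the other 4 (p = 0.0667 by the same exact test). These changes were spread evenly, since alleles at 1% or more supplied 1.22% and 2.47% of their load in CD24_CD29, 1.46% and 1.31% in CD24, and 1.21% and 1.17% in CD29. The removal of duplicate reads and the filters on base quality were not stated in the labels, and their part in low-fraction transversions was not tested.

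Of the 5 alleles with the highest fraction in CD24_CD29 in each number, all but C14338T were counted in all 3 subsets. In replicate 1, C10658T (ND4, synonymous) stood at 21.7% in CD24_CD29, 19.7% in CD24 and 18.0% in CD29, and at under 1% in all 3 libraries of replicate 2. In replicate 2, C11959T (ND5, S73L) stood at 23.1% in CD24_CD29, 23.1% in CD24 and 21.9% in CD29, and at 0.450% or less in all 3 libraries of replicate 1. These 2 alleles thus set the replicate numbers apart far more than the subsets. C7166T (COX2, H52Y) was high in both numbers, at 7.38% and 7.92% in CD24_CD29, 11.3% and 6.70% in CD24, and 9.15% and 6.28% in CD29.

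Some shared alleles still differed by more than counting error. G3079A (ND1, S110N) stood at 20.4% in CD24_CD29 replicate 1, against 16.9% in CD24 and 17% in CD29. C4493T (ND2, L194F) stood at 9.72% there, against 5.42% and 5.83%. C1051T in TrnV, the valine transfer RNA, went the other way in replicate 2, at 9.81% (8.89 to 10.8%) in CD24_CD29, 17.9% in CD24 and 14.1% in CD29. C7953T, where ATP8 (S63L) and ATP6 (synonymous) overlap, did so in replicate 1, at 7.60% in CD24_CD29, 14.1% in CD24 and 10.9% in CD29.

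Over all alleles counted in the 3 subsets of a number, CD24_CD29 took no side. It was the highest for 26, the middle for 21 and the lowest for 17 of 64 alleles in replicate 1, and for 23, 27 and 20 of 70 in replicate 2. The median ratio of CD24_CD29 to the mean of CD24 and CD29 was 1.03 and 0.990, with single alleles between 0.471 and 3.13. Distances between subsets (root mean square difference of arcsine square root fractions at equal coverage) ran over all alleles counted in at least 1 of the 6 libraries. Many of these entered because CD24_CD29 was high, which lengthens its distances, so they are a description. The distance was 0.0453 from CD24_CD29 to CD24 and 0.0407 to CD29 in replicate 1, against 0.0267 between CD24 and CD29. In replicate 2 the distances were 0.0551 and 0.0576, against 0.0315. With alleles at 0.5% or more, the mean excess was 0.00862, against 0.0206 at 1%.

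Alleles counted in CD24_CD29 alone in either replicate number were looked up in the other. Of the 186 alleles counted in CD24_CD29 alone in replicate 1, CD24_CD29 was the highest of the 3 for 58 (31.2%) when looked up in replicate 2, against a background of 45.9% for all alleles. Among the 146 transitions it was the highest for 40 (27.4%), against 21.9% of all transitions. Of the 315 alleles of replicate 2, it was the highest in replicate 1 for 124 (39.4%, background 44.3%), and for 63 of 216 transitions (29.2%, background 24.6%). Over all changes these shares lay below the background and over transitions a few points above it, with no test. Transitions made up 78.5% and 68.6% of the lists of replicates 1 and 2, but 16299 of the 48897 alleles in all. The background over all changes is therefore unlike the lists, and that over transitions is the closer one. The medians of the 186 in replicate 2 were 0.191% in CD24_CD29, 0.211% in CD24 and 0.283% in CD29.

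Of the 186 and 315 alleles counted in CD24_CD29 alone, out of 48897 alleles in all, 9 were so in both numbers. The overlap that unrelated lists would give was not tested, so the 9 are a description. C8929T (COX3, P108L) had the clearest gap, at 1.20% and 1.98% in CD24_CD29, against 0.173% and 0.230% in CD24 and 0.202% and 0.187% in CD29. A4277G (ND2, I122V) stood at 1.17% and 1.68% in CD24_CD29, 0.619% and 0.543% in CD24, and 0.508% and 0.341% in CD29. A12998G (ND5, synonymous) was near the threshold everywhere, at 1.14% and 1.16% in CD24_CD29, 0.810% and 0.929% in CD24, and 0.665% and 0.748% in CD29.

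Without regard to the 1% threshold, CD24_CD29 was above both others in both numbers for 193 of the 842 alleles (22.9%), CD24 for 51 (6.06%) and CD29 for 67 (7.96%). It was below both in both for 79 (9.38%), CD24 for 144 (17.1%) and CD29 for 74 (8.79%). The 842 hold the many alleles that entered because CD24_CD29 was at 1% or more, which favours the count above, so these shares are a description. G272A in mt-Rnr1 led the alleles above, at 1.32% and 4.18% in CD24_CD29, against 0.173% and 1.37% in CD24 and 0.307% and 1.30% in CD29. A9192T (COX3, T196S) stood at 2.2% and 2.04% in CD24_CD29, against 0.481% and 0.332% in CD24 and 0.574% and 1.08% in CD29. A1236G in mt-Rnr2, the large ribosomal RNA, led those below, at 0.0564% and 0 counts in CD24_CD29, against 1.29% and 0.400% in CD24 and 0.468% and 0.408% in CD29.

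No single allele passed the edgeR test over replicates. The edgeR quasi-likelihood test over the 842 alleles called 0 (0%) in CD24_CD29 against the mean of CD24 and CD29, 0 (0%) against CD24 and 0 (0%) against CD29, with lowest adjusted p of 0.870, 0.985 and 0.998. At an unadjusted p under 0.05 there were 38 alleles in the first contrast, 30 higher (3.56%) and 8 lower (0.95%) in CD24_CD29. Against CD24 there were 31, with 27 higher (3.21%) and 4 lower (0.475%), and against CD29 there were 29, with 19 higher (2.26%) and 10 lower (1.19%). Many of the 842 entered because CD24_CD29 was at 1% or more, which favours the higher side, so these splits are a description. With the 5161 alleles at 0.5% or more in any of the libraries, the first contrast had 167 higher and 245 lower. Against CD24 there were then 170 higher and 170 lower, and against CD29 95 higher and 255 lower. DESeq2 on the counts of the 842 alleles called 30 (3.56%), 17 (2.02%) and 14 (1.66%). The number of calls thus differed between the tools.

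The alleles with the smallest p are given as values. C8752T (COX3, T49I) stood at 0.473% and 1.12% in CD24_CD29, had 0 counts in both CD24 libraries and stood at 0.0645% and 0.0146% in CD29 (edgeR adjusted p = 0.985 against CD24). C8929T gave a log2 change of 2.99 against the mean of CD24 and CD29 (edgeR adjusted p = 0.870). A1085G in TrnV was lower, at 0.212% and 0.106% in CD24_CD29, against 1.03% and 1.05% in CD24 and 0.654% and 0.307% in CD29 (log2 change -2.13, edgeR adjusted p = 0.870). C8297T (ATP6, S124L) stood at 0.370% and 2.26% in CD24_CD29, against 0.00490% and 0.00431% in CD24 and 0.0442% and 0.284% in CD29. Against CD29 the smallest were T1993A and A1994C, neighbouring positions of mt-Rnr2 at 0.480% and 1.48% and at 0.407% and 1.40% in CD24_CD29, with 0.0878% or less in CD29. G2586A, also in mt-Rnr2, went the other way, at 0.0340% and 0.0327% in CD24_CD29, 0.0903% and 0.127% in CD24, and 0.295% and 1.23% in CD29 (log2 change -4.12 against CD29, edgeR adjusted p = 0.998). In C8752T, C8929T, C8297T, T1993A and A1994C, both CD24_CD29 libraries lay above the CD24 and CD29 libraries of their number.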

How the data were processed

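The authors deposited whole-number counts per ATAC-seq library: coverage at every mitochondrial position, and how often each other base was read there. The submitters' processing notes name BWA 0.7.17, cutadapt 2.10 and bcl2fastq 2.20, and as builds mm10 and GRCm38. Duplicate removal, quality filters and the handling of nuclear copies are not given in the sources at hand, and each can change a low fraction. Tn5 read shifting does not enter counts per base. Reads carry no molecular identifiers, so intervals (exact Clopper-Pearson, 95%) and limits from 0 counts (3 counts) cover counting error only.

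Groups came from the sample titles. Counts were thinned without replacement to the lowest coverage of the 6 libraries at each position (20 seeded draws, mean depth 6569, lowest 2391). Values per library were compared by exact permutation. Alleles were tested with edgeR 4.0.16 (R 4.3.3) on non-reference and reference counts as paired columns, with a term per library and per subset and 3 residual degrees of freedom, adjusted by Benjamini-Hochberg at 0.05. DESeq2 1.42.0 was an alternative. The script was tested on simulated counts. Python 3.11.15, numpy 2.4.6, scipy 1.17.1 and pandas 2.3.3 did the rest. Codons were read with the vertebrate mitochondrial code in the genes of RefSeq (GRCm38.p6).

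Deviations of same-numbered libraries from their subset means correlated across the 842 alleles at 0.583 (CD24_CD29 with CD24), 0.543 (CD24_CD29 with CD29) and 0.789 (CD24 with CD29). The numbers were therefore taken to pair the libraries in comparisons within a number, from the data and not from the labels. The main edgeR fit and the main permutation test did not use this pairing, which entered as a replicate block among the alternatives. Named alleles were the 5 highest in CD24_CD29, the 8 with the largest lead and the 5 farthest below in each number, the 3 highest stop changes, the 5 leading alleles on the same side or private in both numbers, and the 3 with the smallest p per contrast. The subsets, lists and rules were chosen with earlier results of these data known. The division of the transition load among alleles and the look-up in the other number were added after seeing the values.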

Additional observations from a re-analysis of the deposited data

Results flagged for a closer look

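The transition load stood in different relation to the 2 other subsets. CD24_CD29 was slightly above CD24 in both numbers (0.1299% and 0.1296% against 0.1294% in both CD24 libraries), and below CD29 in both, so the 2 differences had opposite signs in every pair of libraries. The mean gap between the differences, 0.0389 percentage points, equals the gap between CD29 and CD24. This difference was not tested, and the gap to CD24 is small beside the gap to CD29.

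Libraries outside the comparison held some of the alleles counted in CD24_CD29 alone. Of the 186 in replicate 1, 23 were counted in at least 1 of the other 5 subsets of that number, and of the 315 in replicate 2, 40 were. The other 163 and 275 were counted in none of the 8 subsets of their number except CD24_CD29. Of the alleles counted in all 3 subsets, 63 of 64 and 70 of 70 were counted in at least 1 of the other 5.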

How the results depend on the processing

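Of the values that answer a comparison, 157 were scored as the same under an alternative, 11 as moved and 2 as turned round. Where an exact test was used, the same meant the same sign, since no such test could make a call here. For private alleles and distance it meant mostly a shift smaller than the SD of the 2 replicate numbers. Leaving out any library of a number gave the value of the other number, which always lies within that SD. These scores are therefore a description. Of the values of single named alleles, 245 were scored as the same, 9 passed under DESeq2 alone and 1 moved. The difference in total load turned to -0.0191 percentage points with transitions alone, and the difference in transition share to -15.3 at a threshold of 0.5%. The lead of CD24_CD29 in alleles private to a subset, 196 at 1%, was 688 at 0.5% and 35 at 2%. The excess distance of CD24_CD29, 0.0206, was 0.00862 with alleles at 0.5% and 0.0338 with alleles at 2%. Alleles above both others in both numbers were 1180 of 5161 (22.9%) at 0.5% and 37 of 167 (22.2%) at 2%, against 193 of 842 (22.9%) at 1%. The count thus moved with the number of alleles taken, while the share above stayed about the same. Those below were 717 (13.9%) and 10 (5.99%), against 79 (9.38%) at 1%. DESeq2 called 30, 17 and 14 alleles where edgeR called 0 in every alternative fit; the cause was not tested.

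With the replicate block, edgeR also called 0 in each contrast (lowest adjusted p 0.649, 0.719 and 0.829). No exact test could make a call under the block: the exact p for allele number was 0.111, the smallest that 9 ways allow. Leaving out 1 library in turn, the difference in allele number ranged from 138 to 264 (201 with all 6), and that in the share of transition load from alleles at 1% or more from 9.27 to 15.1 percentage points (12.2 with all 6). That share was tested under further settings chosen after seeing the data. No value without a library could be given for alleles on the same side in both numbers. With 2 libraries a subset no exact test can pass 0.05. A1236G in replicate 2 had a difference of -0.421 when thinned to 2000 counts.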
